A study of Drosophila melanogaster with 2 samples.

Results

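The regions described here are the peaks of the heterochromatin protein Su(var)2-HP2 in the gene-bearing DNA next to 4 pericentromeric borders of the Drosophila melanogaster genome. They are the rows of the deposited pooled peak list whose summit lay in the 2 Mb on the arm side of the border, on the dm6 build. The borders were set at 22 Mb on 2L, 23 Mb on 3L, 4.2 Mb on 3R and 22 Mb on X, which are rounded positions. The rule found 3020 of the 30000 pooled peaks, 955 on 2L, 779 on 3L, 1066 on 3R and 220 on X. It used position only, so no peak height entered it. Genes are also assigned by position, so the rule sets which genes can appear below. The peaks came from chromatin immunoprecipitation and sequencing (ChIP-seq) of whole embryos aged 0 to 10 h with an antibody against GFP. The embryos were of a transgenic line in which the C terminus of Su(var)2-HP2 is fused to GFP and the fusion is made stably. The series is 1 group of 2 biological replicates, numbered 4 and 6, with no untagged or mutant group analysed here. Neither the promoter of the transgene nor the presence of untagged protein is given in the labels, and the sex of the embryos was not collected. A whole embryo holds many cell types, and a peak in few cells and a low peak in all cells cannot be told apart. With 1 group there is no test between conditions, and values are given per replicate, per border and with 95% intervals that cover counting error only.

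Pericentromeric heterochromatin is the repeat-rich, compacted DNA on each side of a centromere, and it is packaged with HP1 and nucleosomes methylated on histone H3 lysine 9. Su(var)2-HP2 was found as a partner of HP1, and its mutations suppress position-effect variegation, the patchy silencing of a gene that has been placed next to heterochromatin. The arm DNA next to a border holds ordinary genes at a short distance from that chromatin, and the labels present the experiment as a map of where this protein binds.

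The DNA under the summits that the results turn on is printed first. Each line is the 50 bp on each side of a summit on the plus strand, from the RefSeq Release 6 assembly (dm6), and capitals mark TATCGATA, the DNA replication-related element (DRE) of many promoters of housekeeping genes. The set holds some of the strongest promoter summits of each border, a strong summit far from any start site, and the summit upstream of the piRNA locus flamenco. For CG14647 and CG9853 the printed summit is the lower one of their called interval. The highest summit of the windows, beside it, is not printed.
pths, chr2L:21143029-21143129: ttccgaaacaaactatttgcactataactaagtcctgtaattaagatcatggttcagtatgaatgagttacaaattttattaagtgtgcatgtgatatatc
Lamp1, chr2L:21573256-21573356: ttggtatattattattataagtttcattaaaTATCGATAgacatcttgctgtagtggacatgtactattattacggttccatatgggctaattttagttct
Cul2, chr2L:21658599-21658699: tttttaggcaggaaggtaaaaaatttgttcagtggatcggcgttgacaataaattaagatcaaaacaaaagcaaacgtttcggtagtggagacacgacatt
intergenic summit, chr2L:21559754-21559854: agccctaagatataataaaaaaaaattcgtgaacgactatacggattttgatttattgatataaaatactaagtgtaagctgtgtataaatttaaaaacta
CG14647 and CG9853, chr3R:4400337-4400437: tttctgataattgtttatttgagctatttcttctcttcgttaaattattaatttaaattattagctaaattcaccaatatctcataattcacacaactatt
CG9776, chr3R:4334127-4334227: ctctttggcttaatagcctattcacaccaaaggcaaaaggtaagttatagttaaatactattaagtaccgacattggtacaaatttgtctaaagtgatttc
abs and CG14641, chr3R:4232672-4232772: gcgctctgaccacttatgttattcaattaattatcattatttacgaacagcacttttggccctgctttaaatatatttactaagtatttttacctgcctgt
SMC5 and CRIF, chr3L:21569033-21569133: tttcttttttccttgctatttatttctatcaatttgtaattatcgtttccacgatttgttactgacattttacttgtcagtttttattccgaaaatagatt
DIP1, chrX:21630370-21630470: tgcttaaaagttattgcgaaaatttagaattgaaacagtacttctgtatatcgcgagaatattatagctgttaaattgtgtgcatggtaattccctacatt
Phf7, chrX:20165966-20166066: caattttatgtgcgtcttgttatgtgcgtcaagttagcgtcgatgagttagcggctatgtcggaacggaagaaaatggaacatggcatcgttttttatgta
lncRNA:flam upstream, chrX:21631419-21631519: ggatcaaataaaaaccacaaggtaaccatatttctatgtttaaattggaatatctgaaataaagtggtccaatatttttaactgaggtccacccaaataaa
All 11 stretches hold more A and T than G and C, with GC contents between 21.8% at CG14647 and 41.6% at Phf7. The median at all protein-coding start sites of the 4 arms, over 201 bp, was 41.8%, so the Phf7 stretch is level with it. Of the 11, the Lamp1 promoter was the one with a DRE.

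Peaks were dense next to the borders of 2L, 3L and 3R and sparse next to that of X. The 4 windows held 378 summits per Mb, against 132 per Mb in the rest of the same arms and 535 per Mb on the pericentromeric side of the same borders. Replicate 4 had 362 and replicate 6 had 343 summits per Mb in the windows (352 ± 13.4, SD, n = 2), and 142 and 131 in the rest of the arms (137 ± 7.82). Between windows and rest, the gap was larger than the spread between the replicates. The window of 3R held 533 summits per Mb (replicates 498 and 459), 5.25 times the 102 per Mb of the rest of that arm. The window of 2L held 478 (replicates 451 and 440) against 132, and that of 3L held 390 (replicates 388 and 354) against 147. On X the order was the other way round, with 110 summits per Mb in the window (replicates 110 and 118) and 154 in the rest of the arm (replicates 158 and 136). The windows resembled the arms in repeat content: 18.6% of their bases were soft-masked as repeats, against 17.3% in the rest of the arms and 40.3% on the pericentromeric side.

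Most of this density was made of low peaks. The 3020 peaks included 930 with a q-value under 0.05, 30.8% of them, against 41.3% of the whole pooled list. The authors' list filtered by irreproducible discovery rate (IDR), which aims to keep peaks ranked alike in the 2 replicates, makes up 6.69% of the pooled list and equals its top peaks by signal value. Its members are called strong peaks here. Of the 3020 peaks 125 were strong, which is 4.14% (Wilson 95% interval 3.48 to 4.91). In the rest of the arms 9.37% of the peaks were strong (8.85 to 9.92), a difference of -5.23 percentage points, windows minus rest (Newcombe 95% interval -6.09 to -4.3). Each replicate was counted with as many of its own strongest peaks as the IDR list has. The share was then 4.28% in replicate 4 and 4.23% in replicate 6. On X the strong share was 6.36% in the window and 7.26% in the rest, and the interval of the difference, -3.61 to 3.23 points, includes 0. Strong peaks stood at 15.6 per Mb in the windows, with 25.5 on 3R, 17.5 on 2L, 12.5 on 3L and 7 on X, and at 12.3 per Mb in the rest of the arms. The window thus had more strong peaks per Mb than the rest of its arm on 3R (10.8) and 2L (14.9) in both replicates, and fewer on X (11.2). On 3L the replicates lay on opposite sides of the rest of the arm, at 1.14 and 0.835 times its density.

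Signal values are the authors', on a scale the sources do not state, so each is given relative to the median over the strong peaks of its own list (relative signal), and 1 is the level of a middling strong peak. The 125 strong peaks had a median relative signal of 0.964, close to the 0.935 of strong peaks in the rest of the arms. The lowest strong peaks of the windows had signal values of 122 and 122, and the highest of the other peaks had 121 and 121, so the division is a cut through a continuous range.

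Summit density fell with distance from the border, while the median height of the listed peaks changed little. Summed over the 4 borders, the 0.25 Mb steps from the border outward held 682, 468, 473, 446, 308, 308, 191 and 144 summits. Replicate 4 had 627 in the nearest and 143 in the farthest step, and replicate 6 had 603 and 177. The nearest 0.5 Mb held 3.43 times as many summits as the farthest 0.5 Mb. This ratio was 1.76 when the borders were set 0.5 Mb farther into the arms, and 2.18 between the nearer and the farther 1 Mb. Over the same 8 steps the median relative signal stayed between 0.134 and 0.146, and strong peaks numbered 19, 22, 13, 17, 11, 22, 12 and 9. The list ends at a lower edge that many members lie close to, so its median is a weak measure of height. The upper decile of the relative signal was 0.268 in the nearest step and 0.435 in the farthest. The share of peaks with a q-value under 0.05 was 29% and 41% in the same steps. The fall in number thus lay mostly in the low peaks, and the strong ones were spread over the whole 2 Mb. Over the 32 steps of the 4 borders, the counts of the replicates went together (Pearson's r 0.975, Spearman's rho 0.979), as a description of steps that share libraries. The correlation of summit number with the share of soft-masked bases was near 0 (r -0.00849, rho 0.0293), and that with annotated transposable elements (r 0.407, rho 0.3) and with genes (r 0.28, rho 0.318) was weak. These values pool borders of unlike level. The nearest 2 steps of X were 32.9% and 43.3% soft-masked and held 13 and 45 summits. On 3R the nearest step was 19.1% soft-masked with 248 summits, and the farthest 15% with 9. Correlations within a border were not computed. Summed over the borders, however, the soft-masked share was also highest near them, 23.9% and 28% in the nearest 2 steps and 14.2% to 16.3% beyond 1 Mb, and its part in the density was not tested.

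Each border had its own profile. At 3R the fall was steepest: the nearest 0.5 Mb held 411 summits and the farthest 38 (replicates 387 and 39, 378 and 51), and strong peaks went from 19 to 3. Density there was 992 per Mb in the nearest 0.25 Mb, above the 724 per Mb of the 0.25 Mb across the border, and 36 per Mb in the farthest step. At 2L 412 summits lay in the nearest 0.5 Mb and 115 in the farthest, and strong peaks numbered 13 and 10. A dip to 344 per Mb between 0.5 and 0.75 Mb from the 2L border broke the slope and covers most of the histone gene cluster described below. At 3L the first 0.25 Mb held 840 summits per Mb and the next 236, and density rose again to 500 per Mb between 0.5 and 0.75 Mb (replicates 508 and 348) and to 448 between 1.25 and 1.5 Mb (replicates 444 and 396). Counted by summit, strong peaks of 3L ran the other way from the other borders, with 3 in the nearest 0.5 Mb and 6 in the farthest (replicates 4 and 8, 3 and 5). Several near strong summits of 2L, 3R and X share a called interval, so this contrast may depend on the counting unit. At X the nearest 0.25 Mb held 13 summits, none of them strong, and 0 annotated gene starts, and the 0.25 Mb across the border held 0 pooled summits. The nearest steps of 0.25 Mb at X were 32.9% and 43.3% soft-masked, above the 20.4% and 32.5% of 2L, and the part of repeats in the low counts at X was not tested. Density at X was highest between 0.5 and 0.75 Mb, at 220 per Mb, and the 6 strong peaks of the nearest 0.5 Mb all lay between 0.25 and 0.5 Mb.

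**Figure D1:**
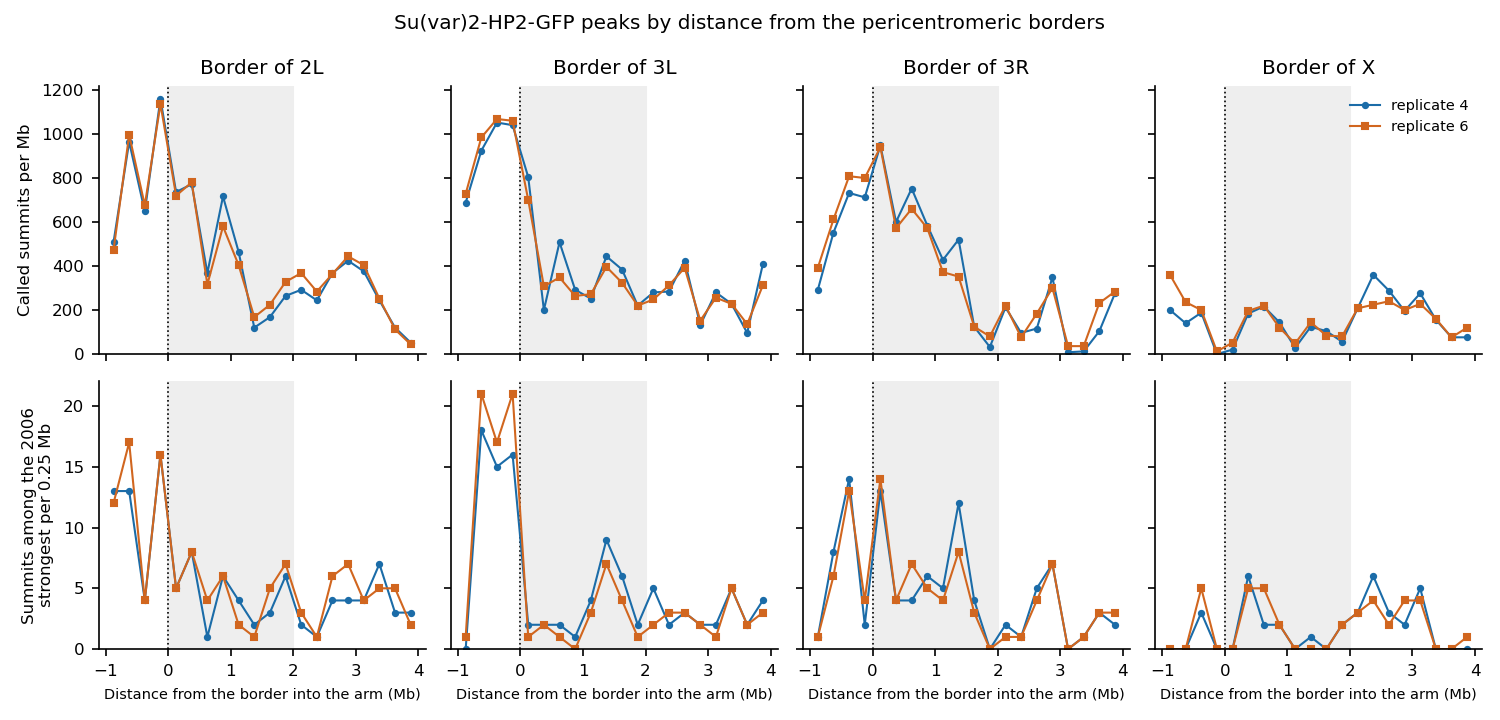
Called summits per Mb (upper row) and number of strong summits in each replicate's list per 0.25 Mb (lower row), against distance from the border in Mb, for replicate 4 (circles) and replicate 6 (squares); grey marks the 2 Mb windows, and negative distances are pericentromeric. Density falls across the grey area at 2L, 3L and 3R in both replicates and stays low at X, where the window held 110 summits per Mb.

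**Figure D2:**
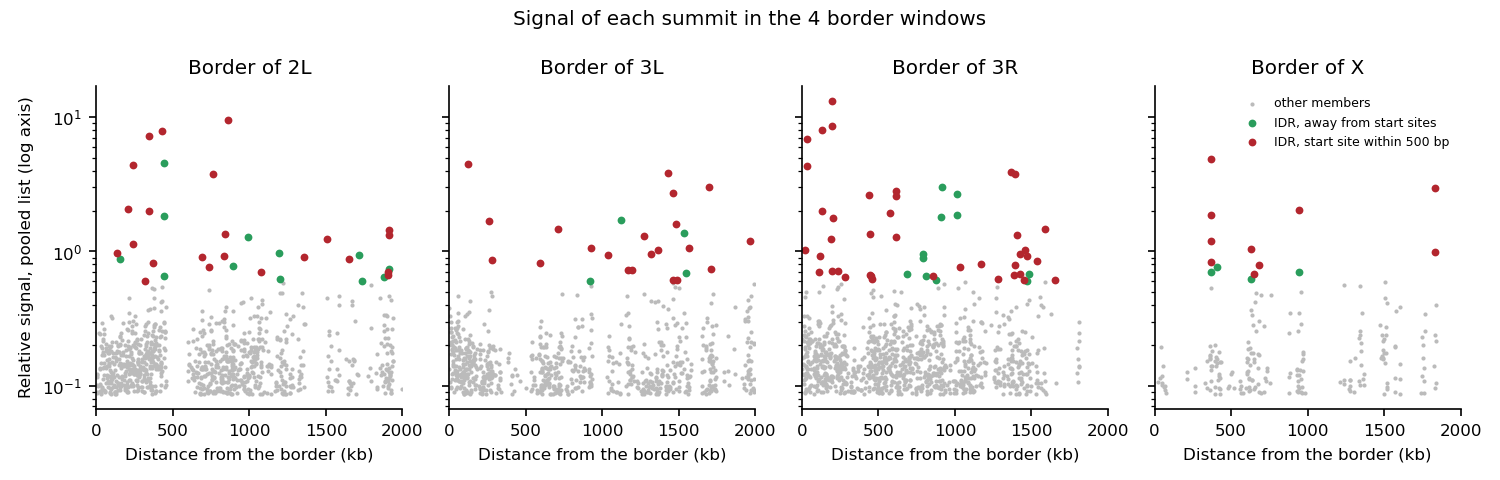
Relative signal in the pooled list (log axis) of each of the 3020 summits, against distance from the border in kb; grey points are the other peaks, red points strong (IDR) peaks within 500 bp of a start site and green points strong peaks farther away. The grey band thins with distance above a lower edge where the list ends. Red points occur both near to and far from the borders of 2L, 3L and 3R, with gaps at X next to the border and between 946 and 1834 kb.

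The strong peaks sat at promoters. A promoter here is the 500 bp on each side of an annotated start site (Ensembl release 115), with transposable elements left out. Of the 125 strong peaks 94 did, 75.2% (67 to 81.9), against 55.5% (52.5 to 58.4) of strong peaks in the rest of the arms. The difference was 19.7 percentage points (11 to 27.1), and the windows' share was 75.8% in replicate 4 and 74.1% in replicate 6. The 125 summits lie in 109 called intervals, and the 1071 of the rest of the arms in 1023. Summits that share a called interval are not independent, so the ranges in brackets treat as separate what is partly joint. The promoter share by called interval was not computed, so the size of the difference may depend on the counting unit. On the pericentromeric side 36% of strong peaks were at promoters. By border the shares were 84% on 3L, 78.4% on 3R, 71.4% on X and 65.7% on 2L, and the interval of the difference from the rest of the arm includes 0 on 2L and X. The set of all 3020 peaks went the other way. Of these 25.2% were at promoters (23.7 to 26.7), against 36.6% in the rest of the arms. Among the 930 peaks with a q-value under 0.05 the share was 42%. By steps of 0.25 Mb from the border outward the share was 22%, 17.7%, 19%, 20.9%, 31.2%, 39.9%, 39.3% and 34.7%, so it was lower in each step of the nearer 1 Mb than in any step of the farther 1 Mb.

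None of the strong summits lay in coding sequence. Of the 125, 77 had an intergenic summit, 29 an intronic one, 15 lay in a 5' UTR, 1 in a 3' UTR, 3 in an exon of a non-coding RNA and 0 in a coding exon. Among the 2895 other peaks 520 summits were in coding exons and 1076 in introns. A single strong summit lay in an annotated transposable element, against 192 (6.63%) of the other peaks. Both replicate lists had a summit within 100 bp at 119 of the 125 strong peaks and at 696 of the 2895 others, as a description, since the IDR list was made with both replicates. Of those 119, 67 had the higher relative signal in replicate 4 and 52 in replicate 6. Among each replicate's own strongest peaks, as many as the IDR list has, 82 of the 125 had a match in both replicates and 37 in 1. The 201 bp around a strong summit had a median GC content of 34.3%, against 42.8% for the other peaks, 32.8% for strong peaks in the rest of the arms and 41.8% for all protein-coding start sites of the 4 arms.

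Counted by gene, the windows held strong promoter peaks at 127 of 859 protein-coding genes, 14.8% (12.6 to 17.3). Of all protein-coding genes tested 8.83% had one. In the rest of the same arms it was 751 of 10008, 7.5% (7 to 8.04), a difference of 7.28 percentage points (5 to 9.86). The windows' share was 13.7% in replicate 4 and 13.9% in replicate 6 (13.8 ± 0.0823). Divergent genes often share 1 peak, so the intervals treat as separate what is partly joint. On 3R 52 of 233 genes had a strong promoter peak, 22.3% against 7.37% in the rest of the arm, and on 3L 35 of 216 did, 16.2% against 6.63%. For both arms the interval of the difference lay above 0 (9.98 to 20.8 points and 5.13 to 15.1). On X 10 of 136 genes had one, 7.35% against 7.3%, with a difference between -3.47 and 5.81 points. On 2L it was 30 of 274, 10.9% against 8.78%, a difference between -1.23 and 6.55 points. The 2L window holds 111 annotated histone genes, none with a peak, and without them the 2L share was 18.4% (13.2 to 25.1). Across the borders 39% of 146 genes had a strong promoter peak, with 75% on 3L, 50% on 3R, 48.6% on 2L and 8.47% on X. Within the windows the share was also taken by 0.5 Mb steps of distance. It was 18.9% in the nearest 0.5 Mb, then 11.8%, 16.6% and 11.8%, with a gene counted in each step where it has a start site. The 111 histone genes lie on both sides of 0.5 Mb from the 2L border and are counted here. They lower the shares of the nearer steps. Shares by step without them were not computed, so neither a trend with distance nor its absence can be read. A peak of any height was found at 473 of the 859 genes, 55.1%, against 35.1% in the rest of the arms.

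**Figure D3:**
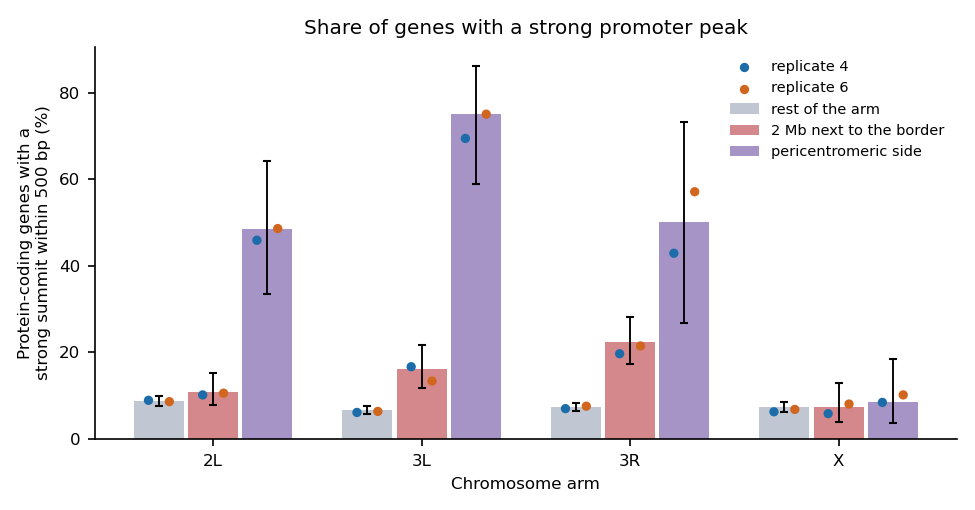
Share of protein-coding genes with a strong summit within 500 bp of a start site (percent), by arm, for the rest of the arm, the 2 Mb next to the border and the pericentromeric side; bars are the IDR list with Wilson 95% intervals and points are the strong peaks of each replicate's own list. The window bar of 3R, at 22.3%, and that of 3L, at 16.2%, stand above the bar of the rest of the arm, and those of X are level.

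Many of these promoters serve genes on both strands. Of the 94 strong promoter peaks 51 were that close to start sites on both strands, 54.3% (44.2 to 64), against 41.4% (37.5 to 45.4) of those in the rest of the arms. On the pericentromeric side 7 of 80 did. Summits that share a called interval are counted separately in these shares too. Besides protein-coding genes, 7 of 146 long non-coding RNA genes in the windows had a strong promoter peak, and 0 of 8 tRNA genes and 0 of 40 snoRNA genes did. These counts of 0 allow up to 37.5% and 7.5%. Of the 3 genes of cytoplasmic ribosomal proteins in the windows, RpLP0 (relative signal 1.39 and 0.55 in replicates 4 and 6) and RpL13A (1.08 and 0.72) had one. Of the 2 genes of mitochondrial ribosomal proteins mRpS18B did (0.654 and 0.697). Of 116 other non-coding RNA genes and of 40 pseudogenes 0 had one. Shares of these classes outside the windows were not computed, so none can be called high or low.

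The 3R border carried the highest peak of the windows. It lay 200 kb from the border, 172 bp from the start site of CG9853 and 329 bp from that of CG14647, with a relative signal of 12.3 in replicate 4 and 13.1 in replicate 6 (12.7 ± 0.587, n = 2). It ranks 53rd in the pooled list. A second summit in the same called interval, chr3R:4399676-4400910, is in the intron of CG9853 closer to CG14647 and had 9.04 and 7.84. The CG9776 promoter, 134 kb from the border, followed with 7.49 and 7.74 (7.61 ± 0.175). Both promoters stood far above 1, the level of a middling strong peak, in both replicates. The summit between abs, which encodes a DEAD-box RNA helicase, and CG14641 had 5.73 and 8.57 (7.15 ± 2.01), the largest SD among the named summits of 3R. It was 32.7 kb from the border, the shortest distance among the strongest summits of any arm, and a second summit of the same interval nearer to abs had 3.41 and 3.3. The sixth summit of 3R lay 1369 kb out, between Rheb, the small GTPase that activates TOR signalling, and CG2931, with 3.25 and 4.37.

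At the 2L border 3 separate promoters were the strongest. The pths promoter, 857 kb out, had 8.46 and 9.81 (9.14 ± 0.955). Lamp1, for a membrane protein of lysosomes, had 6.72 and 8.67 at 427 kb (7.7 ± 1.38). Cul2, for a cullin scaffold of ubiquitin ligases, had 6.43 and 7.22 at 341 kb (6.83 ± 0.558). The lowest of these 6 values, 6.43, was above the 4.8 that the next summit of 2L reached in its higher replicate. The promoter shared by step, an exchange factor for Arf GTPases, and CG1416 had 4.31 and 3.58 at 242 kb. The one between Hr39, a nuclear hormone receptor, and CG31626 had 4.13 and 2.91 at 763 kb. Nearer the border, CG31612 had 2.01 and 1.86 at 205 kb, and the non-coding RNA gene lncRNA:CR44917 had 0.761 and 1.08 at 133 kb.

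Peaks at the 3L border were lower. The strongest lay in the 5' UTR of Chro, 121 kb out, with 4.15 and 4.37 (4.26 ± 0.159). Chro encodes a chromodomain protein of polytene interbands and of the spindle matrix, and the divergent neighbour Ssl1 encodes a subunit of the transcription and repair factor TFIIH. The next was 1431 kb out, between SMC5, of the SMC5/6 genome-stability complex, and CRIF, with 3.19 and 4.32 (3.76 ± 0.805). CG11309 and CG7632 shared a summit of 3.05 and 2.7, and Mkrn1, for a makorin ring-finger protein, had 2.74 and 2.39. Those promoters stood 1431, 1695 and 1466 kb from the border. The Chro summit was the 1 strong peak in the nearest 0.25 Mb of 3L, and the promoter of CG7369 at 258 kb had 1.57 and 1.73. At 3R, in contrast, 5 of the 6 highest summits were at most 200 kb from the border. They are not all separate, since 2 share the called interval of CG9853 and CG14647 and 2 that of abs and CG14641.

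On X the highest summit, 370 kb out, lay 272 bp from the start of DIP1, which encodes a double-stranded RNA-binding protein, and 488 bp from that of lncRNA:CR44712. It had 3.59 and 5.76 (4.68 ± 1.53). The same called interval, chrX:21629844-21632030, holds 3 more strong summits. One between the same genes was in the list of replicate 6 alone within 100 bp (2.42), and the other 2 lay 422 and 201 bp from the start of lncRNA:flam, with 1.24 and 1.15 and with 1.12 and 0.399. lncRNA:flam is flamenco, the locus of piRNA precursors that restrain gypsy-type retroelements in ovarian follicle cells. Along its annotated 159 kb, chrX:21631891-21790731, there were 17 summits (16 and 18 in the replicates), of which 1 was strong. That one, with 0.862 and 0.436, lay in an INE-1 element inside a flam exon. The highest relative signal along the annotated locus was 0.862 in replicate 4 and 0.658 in replicate 6, below the 1.24 and 1.15 of the upstream summit and, in replicate 6, above the 0.399 of the other. The locus is rich in repeats, and since the treatment of reads that map to several places is not stated, no level can be read along it. Elsewhere on X, Phf7, for a PHD-finger protein of the male germline, had 2.8 and 2.96 at 1834 kb. The promoter of bves, a Popeye-domain protein, and Stt3A, the catalytic subunit of oligosaccharyltransferase, had 1.85 and 2.03. The promoter of bbx, for an HMG-box protein, had 0.803 and 1.22.

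**Figure D4:**
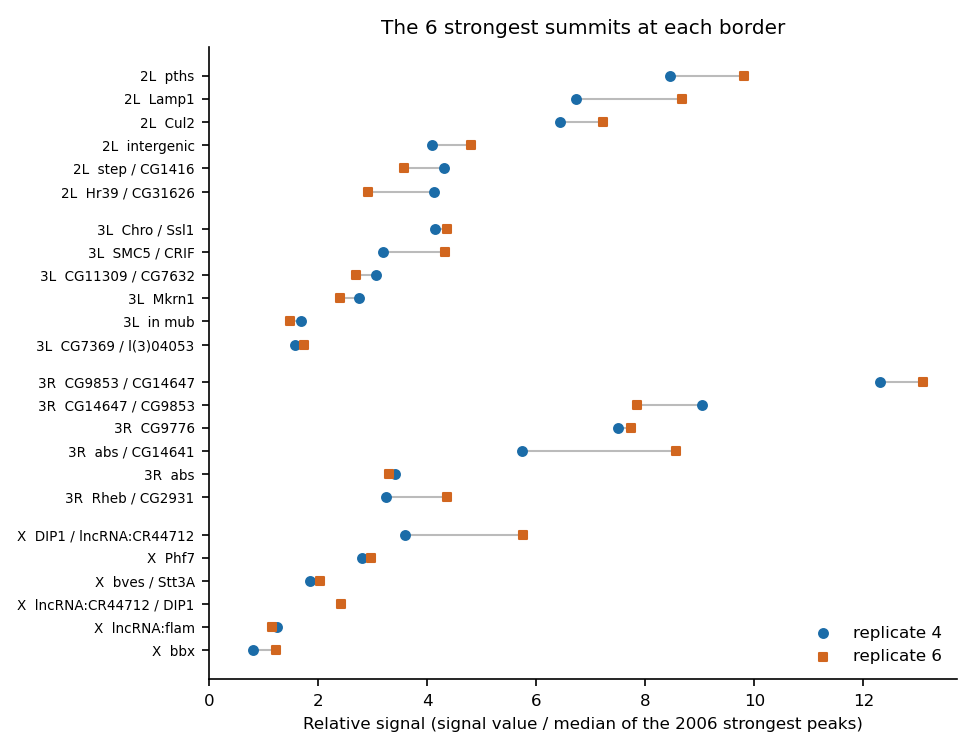
Relative signal (no unit, linear axis) of the 6 strongest summits of each border in replicate 4 (circles) and replicate 6 (squares), labelled by the genes with a start site within 500 bp or the gene that holds the summit. The CG9853 and CG14647 summit of 3R, at 12.3 and 13.1, stands above all others, and the second lncRNA:CR44712 summit of X has a value in replicate 6 alone.

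Strong peaks away from promoters numbered 31 and were intergenic or intronic apart from the one in the flam exon. The highest was on 2L at 21559804, 13585 bp from the nearest start site, with 4.09 and 4.8 (4.44 ± 0.503). It shares the called interval chr2L:21557991-21560149 with a summit of 1.95 and 1.65 and with another strong one. On 3R an intergenic summit at 5113278, 4100 bp from a start site, had 2.81 and 2.86. A pair of summits in introns of cno, which encodes the afadin homologue of adherens junctions, had 3.38 and 1.36 and 1.96 and 1.5. The replicates thus lay far apart at the first cno summit (SD 1.43) and close together at the intergenic one (SD 0.0336). On 3L the highest were in an intron of mub, for a KH-domain RNA-binding protein (1.69 and 1.49), and in intergenic DNA at 21464501 (1.6 and 0.921). On X no such summit passed 0.862 in either replicate, the highest being intergenic at 21594069 (0.689 and 0.675), in an intron of bves (0.631 and 0.737) and the flam exon.

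Wide called intervals were more frequent here than in the rest of the arms. Of the 125 strong summits 18 lay in called intervals wider than 1000 bp, 14.4% (9.31 to 21.6), against 2.43% (1.66 to 3.53) in the rest of the arms and 51.8% (45.3 to 58.3) on the pericentromeric side. Summits of 1 interval are not independent: the 18 fall into 8 intervals, all within 857 kb of a border, and the 26 of the rest of the arms into 16. The widest were the DIP1 and flam interval of X at 2187 bp, the intergenic interval of 2L at 2159 bp, that of Cul2 and lncRNA:CR43144 at 1945 bp and that of Hus1-like, ctrip and Gmppb on 3R at 1902 bp. The others were at abs and CG14641 (1423 bp), CG9853 and CG14647 (1235 bp), pths (1207 bp) and Lamp1 (1117 bp). The window of 3L held none.

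The histone gene cluster is a gap in the map. It covers 125 kb of 2L, chr2L:21416953-21541681, as tandem near-identical copies of the replication-dependent histone genes, and it held 0 summits in the pooled list and in both replicates. The 20 kb on each side together held 22 summits, 3 of them strong, with 21 and 16 summits in the replicates. Of the 111 histone genes 0 had a peak. An upper limit for this count of 0 is not given, since it assumes genes that could each be called. Reads from identical copies cannot be placed uniquely, and how the authors handled them is not stated in the labels, so no level can be read for these genes.

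A list of genes known from the bands next to pericentromeric DNA had 35 symbols, of which 32 were matched and 23 start in the windows. The symbol flam was not matched, since the annotation has lncRNA:flam, so that gene, described above, is not in these counts. Of the 23, 8 had a strong promoter peak, 11 a lower one and 4 none. Among all protein-coding genes of the windows 14.8% had a strong peak and 55.1% a peak of any height. Without histone genes these shares were 17% and 63.2%. The list was chosen with earlier results of these data known, and Chro and Ssl1 share a summit, so no excess is read from it. The 8 were Chro, Ssl1, step and Hr39, given above, with Df31, a chromatin decondensation factor (0.837 and 0.656), Ten-m, a teneurin (0.973 and 0.438), eg, a zinc-finger transcription factor (0.681 and 0.689), and sol, a calpain-type protease (0.558 and 0.791). Several other developmental transcription factors on the list had low values. The highest summit at tsh, a homeotic zinc-finger gene 171 kb from the 2L border, had 0.437 and 0.108, cad had 0.275 and 0.149, and hkb had 0.16 and 0.154. The summit at run had 0.132 in replicate 4 and no match in replicate 6, and Hr38 and cas had no summit within 500 bp. No summit was called at a start site of nrv3 or shakB either. The other lower peaks were at dia, E2f2, barr, fliI, Itpr, Csp and at the start site of mub. Long genes differed in how many low peaks they held. The Ten-m gene held 77 summits, of which 0 were strong, its strong promoter peak being outside the gene body, and the 166 kb shakB gene held 1.

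Outside the naming rule, some further genes were picked out after their values were seen, because they had a strong promoter peak, and they stand for no group. The noi and Vha26 promoter on 3R, for a subunit of splicing factor SF3a and one of the vacuolar proton pump, had 3.42 and 3.79 (3.6 ± 0.261). The Mediator genes MED31, MED27 and MED1 had 2.6 and 2.37, 0.86 and 1.19, and 0.703 and 1.38. Polr2H, Polr2F and Polr3E, for RNA polymerase subunits, had 1.01 and 1.52, 0.715 and 0.713, and 1.25 and 0.926. The kinases Cdk12, which acts on RNA polymerase, and SAK, the Polo-type kinase of centriole duplication, share a summit of 1.31 and 1.77. Others were tub, an adaptor of Toll signalling (1.15 and 1.13), Hem, of the actin-regulating WAVE complex (1.23 and 1.61), and eEF2, the translation elongation factor (0.598 and 0.506).

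Short motifs of promoters were counted in the 201 bp around summits, on both strands. TATCGATA (DRE) was in 8 of the 125 strong peaks, 6.4% (3.28 to 12.1), and GGTCACAC (Motif 1) in 7, 5.6% (2.74 to 11.1). Among strong peaks of the rest of the arms they were in 3.73% and 1.87%, and among all protein-coding start sites of the 4 arms in 6.58% and 5.64%. The other peaks of the windows had 1.8% and 0.967%. The intervals of the strong peaks include the shares of the start sites for both motifs. The sequence GAGAGAG, bound by GAGA factor, was in 1 strong peak and in 4.67% of start sites. The early-embryo Zelda site CAGGTAG was likewise in 1 and in 1.07%. None of the 4 motifs contains another.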

How the data were processed

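The members and gene lists were chosen with earlier results of these data known. Su(var)2-HP2-GFP ChIP-seq of whole embryos (2 biological replicates, chromatin sonicated to 200 to 800 bp, per the labels) gave 4 deposited peak lists on dm6: 1 per replicate, a pooled list and an IDR list. The labels name no aligner, caller or read filter (not given in the sources used here). Each peak's signal value is a score from the authors' peak calling against a common control, as deposited, on an unstated scale. The deposited lists give the −log10 of a q-value per peak, which tops out at 3.98 in the pooled list, so it does not rank strong peaks. Each peak was placed by its deposited summit offset, in bp from the start of the called interval. The pooled list and those of the replicates each hold 30000 peaks. Read numbers are not part of these lists, and the depth behind a peak is unknown.

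From these lists, summits were counted by position, by distance to the border in 0.25 Mb steps and by distance to start sites (Ensembl release 115 annotation, RefSeq Release 6 sequence), with Python 3.11.15, numpy 2.4.6, pandas 2.3.3, scipy 1.17.1 and matplotlib 3.10.9. Shares have Wilson 95% intervals and differences Newcombe 95% intervals, which cover counting error only. The upper limit for a count of 0 is 3 counts of the total. Summits were matched between lists within 100 bp. No test was run, since there is 1 group. The counting steps were tested on simulated data.

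Genes named are those at the 6 strongest summits of each border, up to 4 with a strong summit in the nearest 250 kb, a list of landmark genes of these bands, and the 3 strongest summits away from start sites. Alternatives were borders moved by 0.5 Mb each way, other peak sets, called intervals as the unit, other start-site distances, other near and far parts, other scales and each replicate left out. The counts of wide intervals (over 1000 bp) and of promoters on both strands were added after the values were seen.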

Additional observations from a re-analysis of the deposited data

Results flagged for a closer look

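The following differences between borders were seen in both replicates and were not tested. Strong summits were 0.5 times as many in the nearest as in the farthest 0.5 Mb of 3L, 3 against 6, while 2L, 3R and X had more in the nearest part. The X window had 0.713 times the summit density of the rest of its arm, whereas the windows of 2L, 3L and 3R had 3.63, 2.65 and 5.25 times. The X window also had 0.625 times the density of strong summits of the rest of X, with 1.17 times on 2L and 2.37 times on 3R. These ratios rest on few strong summits, 14 in the X window and 25 in that of 3L. Summits that share a called interval are counted separately. Of the 6 strong summits near the X border 4 share the DIP1 and flam interval, and the far 2 share that of Phf7. On 2L 3 of the near 13 share an intergenic interval. Near and far counts of strong peaks by interval were not computed, so the contrast with 3L may depend on the counting unit.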

How the results depend on the processing

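Under the alternatives 39 values moved by more than the spread between replicates and 10 did not. The ratio of near to far summits stayed above 1 in all of those run, and the shares are single values with no direction. The ratio of summits in the nearest to the farthest 0.5 Mb, 3.43, became 1.76 with borders moved 0.5 Mb toward the arm, 2.38 toward the centromere, 2.77 for peaks with a q-value under 0.05, 3.89 per unmasked base and 2.18 for 1 Mb parts. It was 2.92 to 3.15 with 1 replicate left out. The strong share, 4.14%, became 4.35% and 3.97% with the borders moved to the arm and to the centromere, 13.4% among peaks with a q-value under 0.05, 1.95% for the stronger part of the IDR list, 4.55% by interval, and 4.23% to 4.28% without a replicate. The promoter share of strong peaks, 75.2%, became 67.3% and 65.5% with the same moves, 84.7% for the stronger part, 64% and 76.8% at 250 and 1000 bp, and 71.2% for protein-coding start sites. It was 74.1% to 75.8% without a replicate, and it was not computed by called interval. The promoter share of all peaks, 25.2%, became 29.4% and 17.7%, 42% with the q-value limit, 16.9% and 37% by distance and 21.2% for protein-coding start sites, and was 24% to 26.1% without a replicate. The share of genes, 14.8%, became 11.5% and 17.1%, 7.8% for the stronger part, 11.9% and 15.8% by distance, and 13.7% to 13.9% without a replicate. The median log2 relative signal, near minus far, was 0.00 and became 0.33 with the borders moved toward the centromere and -0.38 with the q-value limit, with 0.03 to 0.18 without a replicate. Alternatives added after the data were seen gave a density ratio of 3.66, a strong share of 3.96% and a relative signal of 0.03 without the X window, and a gene share of 17% without histone genes. The causes were not tested, apart from narrower sets and distances, which count fewer peaks by construction. No paired analysis was possible because the series has 1 group. Depth is unknown, and borders are rounded.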
